A study of Mus musculus with 14 samples.

Results

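Netrin signalling and netrin-G genes were followed across 7 pools of neurons from the mouse medial vestibular nucleus, the brainstem nucleus that relays head motion to eye and posture circuits. The 9 genes were taken by symbol from the array annotation: the receptors Dcc, Unc5a, Unc5b, Unc5c and Unc5d, the secreted netrins Ntn1 and Ntn4, and the membrane-anchored Ntng1 and Ntng2. They are read by 14 of the 30843 probe sets in the value table, and as genes they are 9 of 16244. All cells came from reporter mice of the YFP-16, GIN and GlyT2-13 lines on C57BL/6, taken 24 to 32 days after birth. In these lines the reporter is driven by regulatory sequence of Thy1, Gad1 and the glycine transporter gene Slc6a5, respectively. The labels give the 3 lines for every pool together, so the line behind a given pool is not known. Cells had been typed one by one from their amplified cDNA, and the cDNA of each type was then combined. By their labels, names beginning with E mark the excitatory types, here E1 and E2, and names beginning with I the inhibitory ones: I1a, I1b, I2, I3a and I3b. Each type is 1 pool, hybridised to 2 arrays as technical replicates, which gives 14 arrays. How many cells or animals a pool holds is not given in the sources used here, and within a pool few cells with much transcript and many cells with little cannot be told apart. A further type of the design, E3, was not analysed here.

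Netrins are secreted guidance cues for growing axons. Dcc mediates attraction and, together with receptors of the Unc5 family, repulsion, and in the absence of ligand several of these receptors can promote cell death. In the adult brain Dcc and netrin-1 also act at synapses. Netrin-Gs are relatives that are held at the membrane by a lipid anchor, do not bind Dcc or Unc5 receptors, and pair across synapses with the leucine-rich repeat proteins encoded by Lrrc4c and Lrrc4. All of these genes are best known from circuit formation, whereas the neurons measured here came from young mice after weaning age.

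Signals are log2 values, so a difference of 1 is a doubling. The lowest value in the table was 2.39, and between 34.3% and 37.8% of probe sets on an array lay at it. Arrays of the same pool correlated across genes with r between 0.981 and 0.992, and arrays of different pools with r between 0.847 and 0.960; genes are not independent replicates, so these carry no test. Of the 4 neuronal markers measured, Snap25, Syt1, Map2 and Rbfox3, each had a mean over 5 in every pool. Among 20 markers of astrocytes, oligodendrocytes and their precursors, microglia, endothelial cells and pericytes, 2 reached a mean of 5 in any pool, Mbp and Rgs5, and 16 stayed under 3 in all pools. The averaged signal of the 20 ran from 2.46 in E2 to 2.71 in I3a. Of the other hindbrain neurons, the Purkinje cell markers Pcp2 and Calb1 and the granule cell marker Gabra6 stayed at 2.88 or below, while Neurod1, the other granule cell marker, ran from 3.11 in I2 to 8.44 in I3b.

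Transmitter markers were highest in the pools their labels name, but not limited to them. Slc17a6, the vesicular glutamate transporter, read 11.11 in E1 and 10.98 in E2, but also 10.48 in I1b, 8.60 in I1a and 6.93 in I3a, and was low only in I2, at 3.11, and I3b, at 3.19. Slc17a7, the other glutamate transporter on the list, stayed at 2.82 or below. Gad1, which makes GABA, read 10.75 in I1b to 12.38 in I2 among the pools labelled inhibitory, and 7.80 in E1 and 6.80 in E2. Slc32a1, whose product loads inhibitory transmitters into vesicles, read 9.20 to 9.76 in the former, and 6.597 in E1 and 5.41 in E2. Slc6a5 read 7.53 to 8.47 in the former, 6.31 in E1 and 3.33 in E2. Gad2, the remaining inhibitory marker, read 7.92 to 9.33 in the former, 5.72 in E1 and 6.43 in E2. Pools labelled I1a, I1b and I3a thus had signal of the excitatory marker Slc17a6. E1 had means over 5 for all inhibitory markers, and E2 for all but Slc6a5.

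Transcripts were read mainly near their 3′ end. The control probe sets for Gapdh had pool means of 9.34 to 9.77 at the 3′ end, 6.74 to 7.63 in the middle and 3.57 to 3.91 at the 5′ end. Those for beta-actin had pool means of only 3.63 to 4.62 at the 3′ end. They were at the floor of 2.39 in the middle and at the 5′ end in every pool. A probe set at the floor therefore says that no signal was read at its position, and not that the gene is silent.

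Of the 9 genes, 4 had a mean of at least 5 in at least 1 pool, the filter for every test: Dcc, Unc5c, Unc5d and Ntng1. Over all genes 27.1% passed. The other 5 had a mean under 3.3 in every pool on every probe set. Most of their arrays lay within 0.1 log2 units of the lowest value of the probe set, from 10 of 14 on the brighter probe set of Ntng2 to all 14 for Unc5a. Unc5a, a repulsive netrin receptor, read 2.39 on all 14 arrays. Unc5b, a receptor also known from blood vessels, read 2.65 to 2.82. Ntn1, which encodes netrin-1, the main ligand of Dcc, read 2.39 to 2.74. Ntn4, a netrin of basement membranes, had 2 probe sets, which read 2.39 to 2.49 and 2.39 to 2.42. Ntng2, which encodes netrin-G2, had 2 as well, at 2.90 to 3.63 and at 2.39 to 2.44. These 5 genes differed by at most 0.37 log2 units between pools on any probe set. The endothelial markers Cldn5, Flt1, Tek and Cdh5 stayed at 2.68 or below in every pool.

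**Figure D1:**
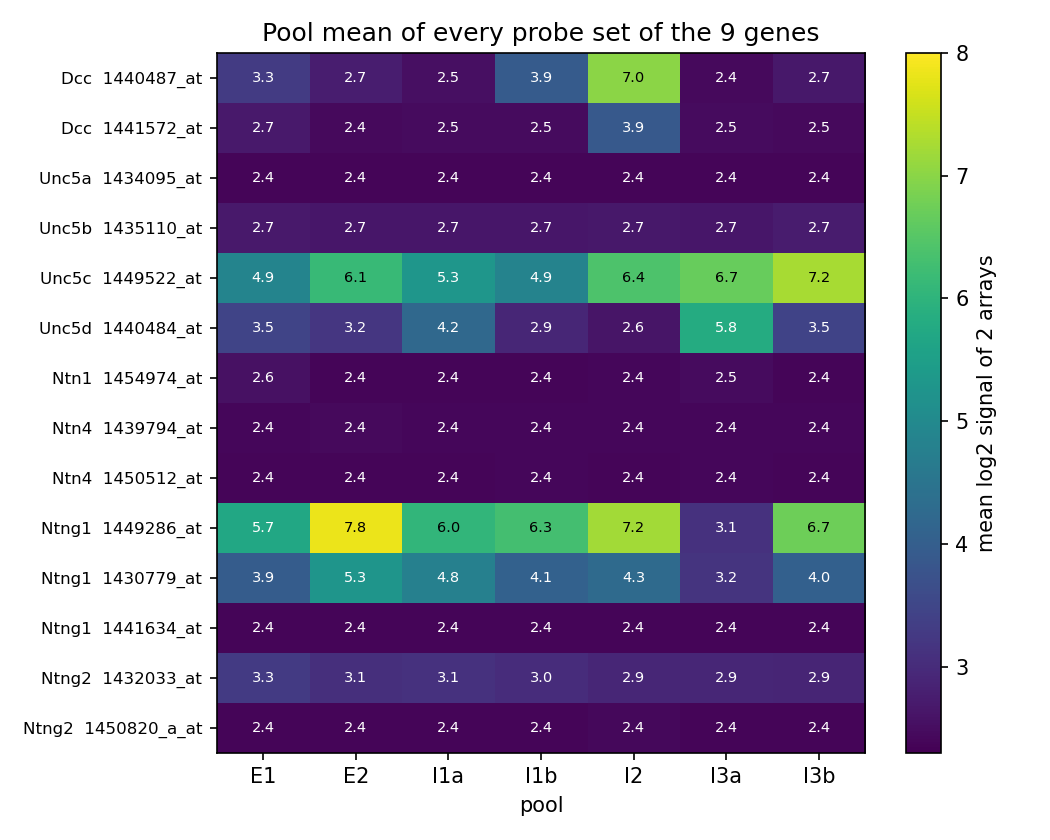
Mean log2 signal of 2 arrays for each of the 14 probe sets (rows, with gene and probe set name) in each of the 7 pools (columns), with the value printed in each cell. Signal was confined to 1 or 2 probe sets each of Dcc, Unc5c, Unc5d and Ntng1, while rows of Unc5a, Unc5b, Ntn1, Ntn4 and Ntng2 stayed under 3.3 in all pools.

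Dcc, the receptor that attracts axons to netrin-1, had its highest signal in I2. Its brighter probe set, 1440487_at, read 7.06 and 6.98 on the 2 arrays of I2. It read 3.88 and 3.996 in I1b, 3.40 and 3.16 in E1, and 2.88 and 2.62 in E2. In I1a it read 2.45 and 2.64, in I3a 2.45 on both arrays, and in I3b 2.45 and 2.88. Both arrays of I2 thus stood far above the other 12, and I1b came next. The I2 pool was higher than each of the other 6 pools, by 3.08 log2 units against I1b and by at least 4.57 against I3a, with an adjusted p of at most 4.10e-07 in any of these pairs. The I3a value is a bound, since both arrays read 2.45, the lowest value this probe set took. These p-values come from limma on 14 arrays, are adjusted over all genes and all 21 pairs of pools together, and cover technical error alone, so that they compare pools and not cell types. Of these gene-by-pair tests, 15.6% were called over all genes, a call being an adjusted p under 0.05 with a difference of at least 1. Dcc was called in 10 of its 21 pairs, 6 of them with I2 and 4 with I1b on the higher side. It passed the filter through I2 alone and so had to be high there to be tested. The calls with I2 are thus a description and no independent support. With all values under 5 raised to 5, the 6 pairs with I2 were left. Further down the order, I1b exceeded E1 by 0.66 (adjusted p 0.0257), which is under 1 and so not called. The remaining neighbours, E1, E2, I3b, I1a and I3a in falling order, were not called either, with differences of 0.08 to 0.53.

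The second Dcc probe set, 1441572_at, showed the same pool on a lower level. It read 4.01 and 3.80 in I2, 2.46 and 2.94 in E1, and 2.44 to 2.48 on the other 10 arrays. Since no pool mean reached 5, it entered no test.

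Both arrays of I2 lay at least 1 log2 unit above all others for 132 genes, which is 2.99% of those tested, and Dcc ranked 16 among them by the size of its gap, 2.98. The same count was 3 to 15 genes for a high level in each of the other 6 pools, or 0.0680% in I1b to 0.340% in I3b. I2 thus had more such genes than any other pool. Dcc was tested through I2 alone, so its rank is a description and not support. Beside it, Rgs5, a pericyte marker also made by some neurons, read 7.35 in I2 and at most 2.57 elsewhere, while the other pericyte marker measured, Pdgfrb, stayed at 2.42 or below. The bacterial control BioB was lowest in I2, at 7.74 against 7.88 to 9.62 in the other pools. Another bacterial control, Dap, was highest there, at 6.33 against 4.57 to 6.14, and Lys read 11.51 within a range of 10.37 to 12.003. The 3′ control of beta-actin was highest in I2 as well, at 4.62 against 3.63 to 3.73 in the other pools. The part of these values in the Dcc level was not tested.

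Unc5c, a repulsive netrin receptor that pairs with Dcc, had signal in all pools and the highest in I3b. Its probe set read 7.20 and 7.29 in I3b, 6.57 and 6.79 in I3a, and 6.20 and 6.64 in I2. It read 6.18 and 6.08 in E2, 5.45 and 5.12 in I1a, 5.21 and 4.54 in E1, and 4.66 and 5.05 in I1b. Levels fell in small steps, from 7.25 to 4.86 as pool means, and no 2 neighbours in this order were called. The largest step was 0.85 between E2 and I1a (adjusted p 0.0126 over genes and pairs), and all the others were 0.57 or less. Over longer distances 12 of 21 pairs were called. Of these, 1 was I3b over E2, and in the rest I3b, I3a, I2 or E2 stood over I1a, E1 or I1b.

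Unc5d, the fourth member of the family, which in embryonic cortex marks migrating neurons, was highest in I3a. Its probe set read 6.28 and 5.32 there, the widest gap between arrays of a pool among the 4 genes. It read 4.05 and 4.38 in I1a, 3.31 and 3.64 in E1, 3.40 and 3.51 in I3b, and 3.03 and 3.37 in E2. The lowest values were 2.94 and 2.87 in I1b and 2.81 and 2.45 in I2. I3a was called higher than each of the other 6 pools, by 1.58 against I1a (adjusted p 0.00112) to 3.17 against I2. I1a was called higher than 3 pools, which makes 9 of 21 pairs. Unc5d passed the filter through I3a alone, so it had to be high there to be tested. The differences of 0.84 for E1 minus I2 (adjusted p 0.0379) and -0.83 for I2 minus I3b (adjusted p 0.0417) were under 1 in size and so not called. Apart from I3a every array was under 5, and with values under 5 raised to 5 no pair was called. The lower array of I3a lay 0.93 above the highest array of the other pools, just short of the 1 log2 unit that 8 genes reached in I3a (0.181%). BioB was highest in I3a, at 9.62, and so was Lys, at 12.003 against 10.37 to 11.64 elsewhere, while Dap read 6.14 there. The part of these controls in the I3a values was not tested.

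Ntng1, which encodes netrin-G1, a marker of axons from thalamus and other long-range projections, had signal in 6 pools and little in I3a. Its brightest probe set, 1449286_at, read 7.85 and 7.83 in E2, 7.24 and 7.17 in I2, and 6.68 and 6.81 in I3b. It read 6.33 and 6.27 in I1b, 6.11 and 5.98 in I1a, and 5.95 and 5.47 in E1. In I3a it read 2.94 and 3.30. No array of I3a came near the others, of which the lowest was 5.47. I3a was called lower than each of the other 6 pools, by 2.59 against E1 to 4.72 against E2, with an adjusted p of at most 3.60e-07. At the top, E2 was called higher than every pool but I2, from which it differed by 0.64 (adjusted p 0.0120). The steps from I2 down to E1 were 0.26 to 0.46 and none was called. In all, 13 of 21 pairs were called.

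A low level in I3a by at least 1 log2 unit on every array was seen for 23 genes (0.522%), and Ntng1 ranked 4 among them with a gap of 2.17. Syt1, a calcium sensor of transmitter release found in most neurons, was lowest in I3a as well, at 6.68 against 9.38 to 11.47 in the other pools. Snap25, at 12.66 within a range of 12.40 to 13.57 over all pools, was not the lowest there, while Map2 was, at 8.98 within 8.98 to 9.57. Rbfox3 was not the lowest in I3a either, at 8.37 against 7.91 in I2 and 5.39 in I3b. Mbp, the oligodendrocyte marker, was highest in I3a at 6.20, with I1b next at 5.50, and the other oligodendrocyte markers Mog, Mag and Mobp stayed at 2.97 or below. The astrocyte marker Gja1 was highest in I3a too, at 4.19 against 2.66 or less elsewhere, while the other astrocyte markers Aqp4, Gfap, Aldh1l1 and Slc1a3 stayed at 2.45 or below. Slc17a6, as given above, was higher in I3a than in I3b by 3.74 (SE 0.11, limma adjusted p 3.48e-10). The part of these levels in the Ntng1 value was not tested.

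A second Ntng1 probe set, 1430779_at, was also highest in E2, with 4.97 and 5.59, and lowest in I3a, with 3.37 and 2.96. Between these, its order differed: I1a came second with 4.72 and 4.87, and I2 read 4.14 and 4.41. It read 3.72 and 4.18 in E1, 4.42 and 3.71 in I1b, and 4.35 and 3.74 in I3b. I3a thus stood less far apart than on the brightest probe set. The third, 1441634_at, read 2.39 on all 14 arrays. Ntng1 has many annotated transcripts, and which of them each probe set reads is not given in the table used here.

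The promoters of the netrin-G pair are shown because one gene had signal and its relative did not, and that of Unc5c because it was measured in every pool. Each sequence covers 250 bases before to 50 after an annotated start in RefSeq, build GRCm38.p6, and CG dinucleotides are in capitals. Those of Ntng1 (chr3:110143423-110143722, minus strand), Ntng2 (chr2:29248050-29248349, minus strand) and Unc5c (chr3:141465314-141465613, plus strand) read as follows.
Ntng1: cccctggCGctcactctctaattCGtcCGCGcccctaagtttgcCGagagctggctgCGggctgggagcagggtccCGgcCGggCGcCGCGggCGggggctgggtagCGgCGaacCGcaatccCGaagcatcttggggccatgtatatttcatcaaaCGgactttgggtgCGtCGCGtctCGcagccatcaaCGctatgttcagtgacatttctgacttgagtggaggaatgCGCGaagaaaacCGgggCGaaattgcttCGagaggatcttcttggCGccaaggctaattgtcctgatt
Ntng2: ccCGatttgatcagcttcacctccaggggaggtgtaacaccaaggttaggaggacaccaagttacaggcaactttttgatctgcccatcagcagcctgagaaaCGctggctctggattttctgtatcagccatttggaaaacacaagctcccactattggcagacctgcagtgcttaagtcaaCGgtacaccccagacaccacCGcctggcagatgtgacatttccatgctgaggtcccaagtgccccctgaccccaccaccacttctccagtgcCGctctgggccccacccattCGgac
Unc5c: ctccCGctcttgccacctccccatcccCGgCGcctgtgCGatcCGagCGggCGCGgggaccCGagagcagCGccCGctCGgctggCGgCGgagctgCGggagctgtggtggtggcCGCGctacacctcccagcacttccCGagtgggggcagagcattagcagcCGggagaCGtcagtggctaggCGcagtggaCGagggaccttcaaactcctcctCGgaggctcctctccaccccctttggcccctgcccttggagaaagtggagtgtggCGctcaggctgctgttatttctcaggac
The Ntng1 window holds 28 CG dinucleotides, more than 85.8% of 32851 promoters in the table, and that of Unc5c holds 24, more than 80.0%. That of Ntng2 holds 6, against a median of 7. Those of Unc5a and Unc5b, neither of which passed the filter, hold 37 and 36. On either strand, the TATA core TATAAA, which 13.6% of promoters hold, occurs in none of the 3 windows. The GC box GGGCGG, which itself contains a CG and is held by 35.7%, occurs in that of Ntng1, and CCAAT, held by 37.4%, in that of Ntng2. A match describes the letters of this window only. Entries were found for 6 of the 9 genes.

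**Figure D2:**
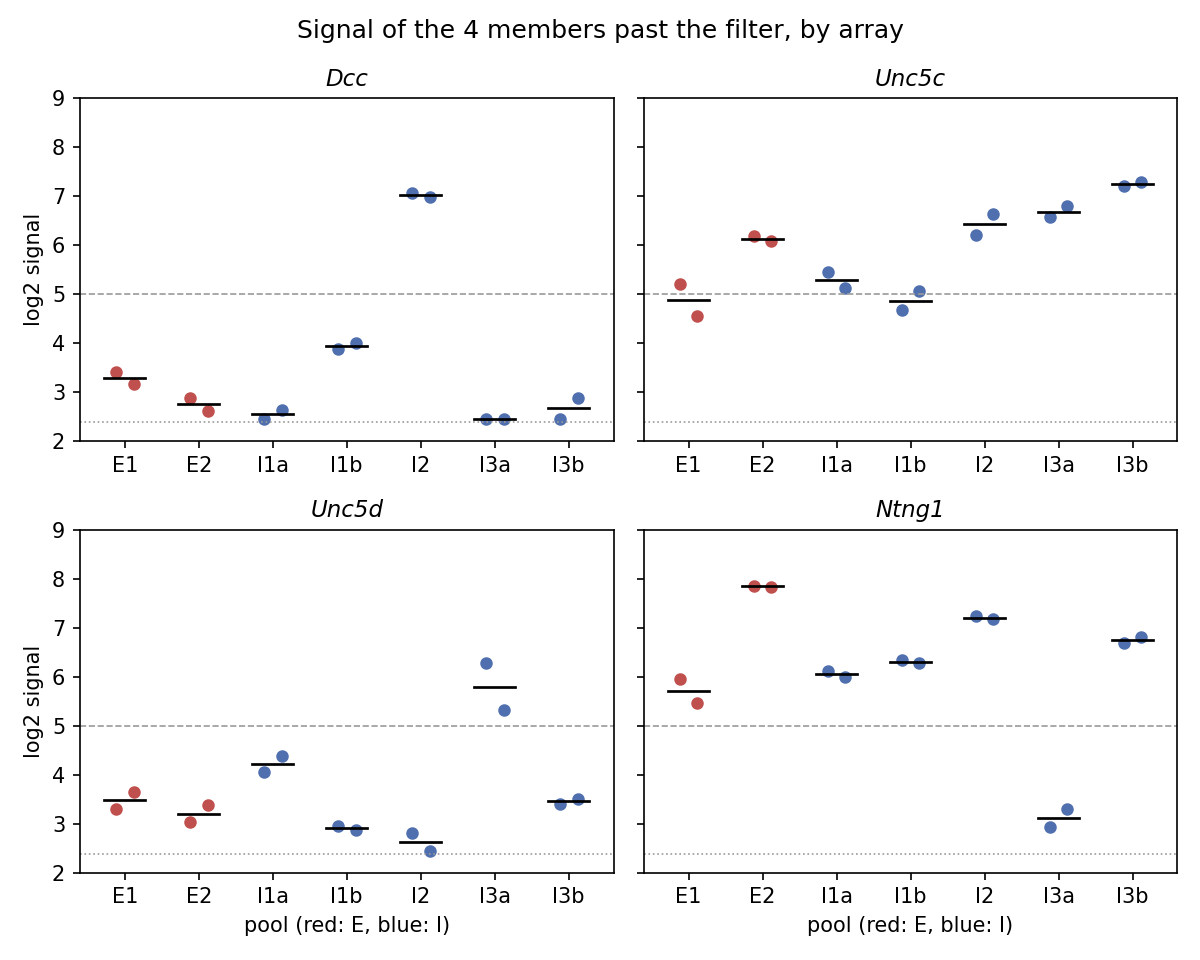
Log2 signal (vertical axis) of the brightest probe set of Dcc, Unc5c, Unc5d and Ntng1 in the 7 pools; each dot is 1 array and each bar the mean of 2, with E pools in red and I pools in blue. The dashed line is the filter at 5 and the dotted line the floor at 2.39. Dcc stood out in I2 and Unc5d in I3a, Ntng1 was low in I3a alone, and Unc5c changed in small steps.

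Which of these genes had a mean above 5 varied from pool to pool. E2, I2 and I3b had Unc5c together with Ntng1, and I2 alone added Dcc. I3a had Unc5c and Unc5d without Ntng1. I1a had Ntng1 and Unc5c, at 6.05 and 5.28, while E1 and I1b had Ntng1 with Unc5c just under 5, at 4.88 and 4.86. Pool means spanned at least 4.57 log2 units for Dcc, 2.39 for Unc5c, 3.17 for Unc5d and 4.72 for Ntng1, where 19.5% of genes past the filter spanned at least 2. Dcc and Unc5d passed the filter through a single pool and so had to differ between pools.

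Pools labelled excitatory and inhibitory were compared to see whether transmitter class divides these genes. With the pool as the replicate, 2 E against 5 I pools, limma called none of the 4 genes, and none had an unadjusted p under 0.05. Over all genes 0.0227% were called, the 1 gene being Slc32a1 (difference -3.48, adjusted p 0.0396). Slc17a6 was not called (difference 4.58, SE 1.997, adjusted p 0.753), nor was Gad1 (-4.31, adjusted p 0.135). Dcc differed by -0.71 log2 units as E minus I (SE 1.25, adjusted p 0.929), Unc5c by -0.59 (SE 0.68, adjusted p 0.866), and Unc5d by -0.46 (SE 0.86, adjusted p 0.930). Ntng1 differed by 0.89 (SE 1.09, adjusted p 0.879). The pools of both classes overlapped for all 4 genes, where 12.2% of genes did not overlap. Dcc and Unc5d passed the filter through 1 I pool each, which favours a negative difference. Each sign rested on 1 pool. Without I2 the Dcc difference was 0.12, without E1 that of Unc5c was 0.033, without I3a that of Unc5d was 0.036, and without E2 that of Ntng1 was -0.17. Without I1b, the pool labelled inhibitory with the most Slc17a6, the differences were -0.65 for Dcc, -0.90 for Unc5c, -0.69 for Unc5d and 0.998 for Ntng1, with adjusted p of 0.637 to 0.909.

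The inhibitory families I1 and I3 were compared on 2 pools each. Unc5c was lower in I1, at 5.28 in I1a and 4.86 in I1b against 6.68 in I3a and 7.25 in I3b, so that the families did not overlap. Families did not overlap for 40.0% of all genes, so 1 member of 4 is no result about these genes. The difference was -1.89 log2 units (SE 0.47, limma adjusted p 0.295) and was not called, as was no gene of 4409 (0%), with 496 at an unadjusted p under 0.05. Unc5c was one of these. With all 14 arrays and the pool as a random block, 114 genes were called and Unc5c was among them (adjusted p 0.0428). That fit shares 1 correlation within pools over all genes and counts technical replicates toward its degrees of freedom. Its p is therefore no measure of the spread of Unc5c between pools. Leaving out single pools gave differences of -1.61 to -2.17 and adjusted p of 0.294 to 0.528. Ntng1 differed by 1.24 (SE 1.26), which turned to -0.57 without I3a, and Unc5d by -1.06 (SE 0.85), which turned to 0.11 without I3a. Unc5d passed the filter through I3a alone, which favours a negative difference. Dcc differed by 0.69 (SE 0.55), and by -0.013 without I1b.

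Sister types were compared on their arrays, with technical error only. E1 and E2 differed in both Ntng1 and Unc5c, which were lower in E1. Ntng1 differed by -2.13 log2 units (SE 0.18, limma adjusted p 6.02e-06) and Unc5c by -1.25 (SE 0.24, adjusted p 0.00224). These are 2 of 4 genes, where 7.39% of all genes were called. All 4 genes spanned at least 2 log2 units over the pools, where 19.5% of genes past the filter did. The share of all genes is therefore no like background for this count. The Unc5c call ended without the second array of E1, at -0.92 (SE 0.24, adjusted p 0.0232), where the difference fell short of 1. On the second Ntng1 probe set, fitted as a feature of its own, the difference was -1.33 (SE 0.32, adjusted p 0.00922). Dcc differed by 0.53 and Unc5d by 0.27, and neither was called.

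I1a and I1b differed in Dcc, lower in I1a by 1.40 log2 units (difference -1.40, SE 0.21, adjusted p 0.000274), and in Unc5d, higher in I1a by 1.31 (SE 0.30, adjusted p 0.00379). Over all genes 13.1% were called. The median of all genes differed by -0.22 between these pools, and with arrays centred on their median the values were -1.15 for Dcc and 1.55 for Unc5d. All 4 pool means behind these calls lay under 5, where the scale is compressed toward its floor, and with values under 5 raised to 5 neither call was left. Unc5c differed by 0.43 and Ntng1 by -0.26. These were not called.

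Between I3a and I3b, 2 of the 4 genes were called. Ntng1 was lower in I3a by 3.63 log2 units (difference -3.63, SE 0.18, adjusted p 4.07e-08). Unc5d was higher in I3a by 2.34 (SE 0.30, adjusted p 0.000123). Without the first array of I3a the Unc5d difference was 1.86, without the second 2.82. Over all genes 9.91% were called. Unc5d was tested only because it was high in I3a, so 2 of 4 beside this share is no result about these genes. Unc5c differed by -0.57 (adjusted p 0.0910) and Dcc by -0.22, and neither was called. The second Ntng1 probe set had the same sign, at -0.88 (SE 0.32, adjusted p 0.0543), and was not called.

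**Figure D3:**
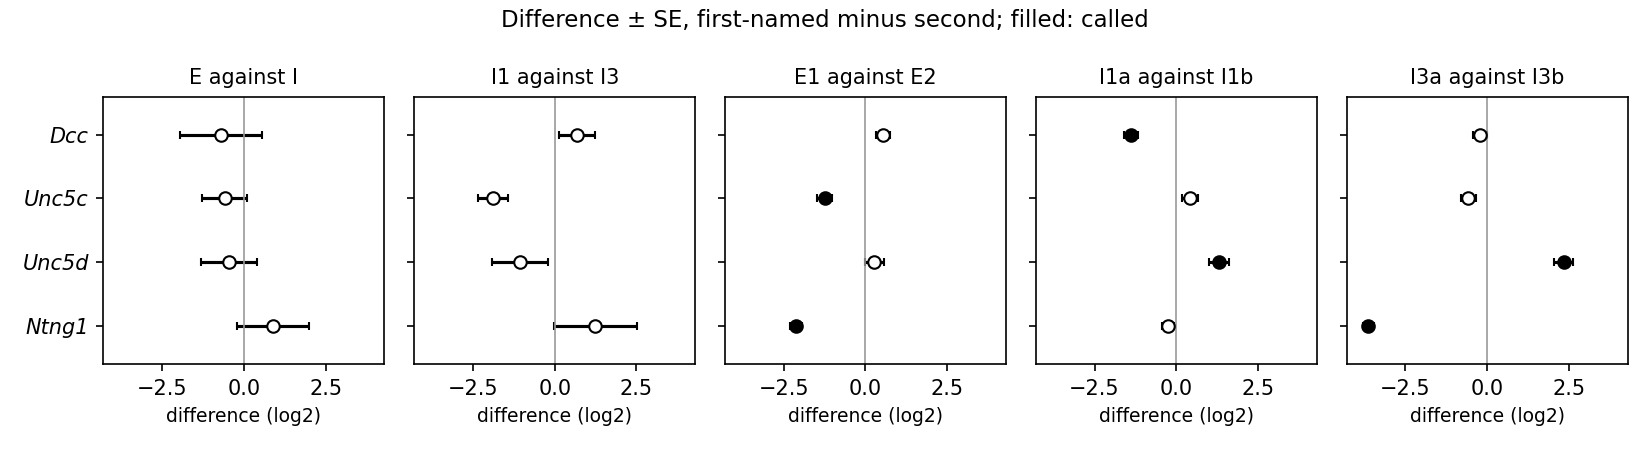
Difference in log2 signal (horizontal axis, first-named group minus second) with its standard error for Dcc, Unc5c, Unc5d and Ntng1 in 5 comparisons; filled dots were called. Standard errors of the first 2 panels come from pools and those of the other 3 from technical replicates. Calls appear only between sister types, with Ntng1 at -3.63 in I3a against I3b as the largest.

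Other genes of the pathway were read from 4 lists of 53 genes, of which 45 had a probe set with 1 symbol and 23 passed the filter. By limma none was called between E and I or between I1 and I3, where 2 and 3 of the 23 had an unadjusted p under 0.05. Among 4 other netrin receptors and related genes past the filter, Dscaml1, a homophilic adhesion molecule close to the netrin receptor Dscam, was lower in E1 than in E2 (difference -1.74, SE 0.38, adjusted p 0.00511). Neo1, the closest relative of Dcc, was measured in every pool, at 7.34 in E1 to 8.89 in I3b, and Dscam at 5.81 in I3b to 6.71 in I1b. Neither was called in any of the 5 comparisons. The ligands Ntn5 and Draxin stayed at 2.84 and 2.41 or below.

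Lrrc4c and Lrrc4, which encode the receptors of netrin-G1 and netrin-G2, had pool means of at most 3.35 and 3.17. Of the 3 receptor phosphatases past the filter, which bind the protein encoded by the related gene Lrrc4b, Ptprf was lower in I3a than in I3b (difference -1.12, SE 0.21, adjusted p 0.00204). Among partners of the Unc5 receptors, Adgrl1 and Adgrl3, the latrophilins that form complexes with FLRT proteins, passed the filter and none was called. Adgrl3 ranged from 7.99 in E2 to 8.91 in I3b. Flrt2, a ligand of Unc5d, reached 4.89 at most.

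Of 25 cytoplasmic effectors with a probe set, 14 passed the filter and 2 were called in at least 1 comparison. Trim9, a ubiquitin ligase that binds Dcc, was called in all 3 sister pairs: higher in E1 than in E2 by 1.28 (SE 0.16, adjusted p 0.000142), lower in I1a than in I1b (difference -1.49), and higher in I3a than in I3b by 1.37. Its lowest level was 6.24 in I2, the pool with the highest Dcc, and its highest was 9.52 in I1b, the pool with the next highest Dcc. Maged1, an adaptor that binds Unc5 receptors, was lower in I3a than in I3b (difference -1.17, SE 0.17, adjusted p 0.000278). The median difference of the 14 effectors was 0.01 for E against I and -0.28 for I1 against I3, beside -0.01 and -0.04 over all genes. For the sister pairs it was -0.03, -0.37 and -0.24 in the order above, beside 0.04, -0.22 and -0.09 over all genes.

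**Figure D4:**
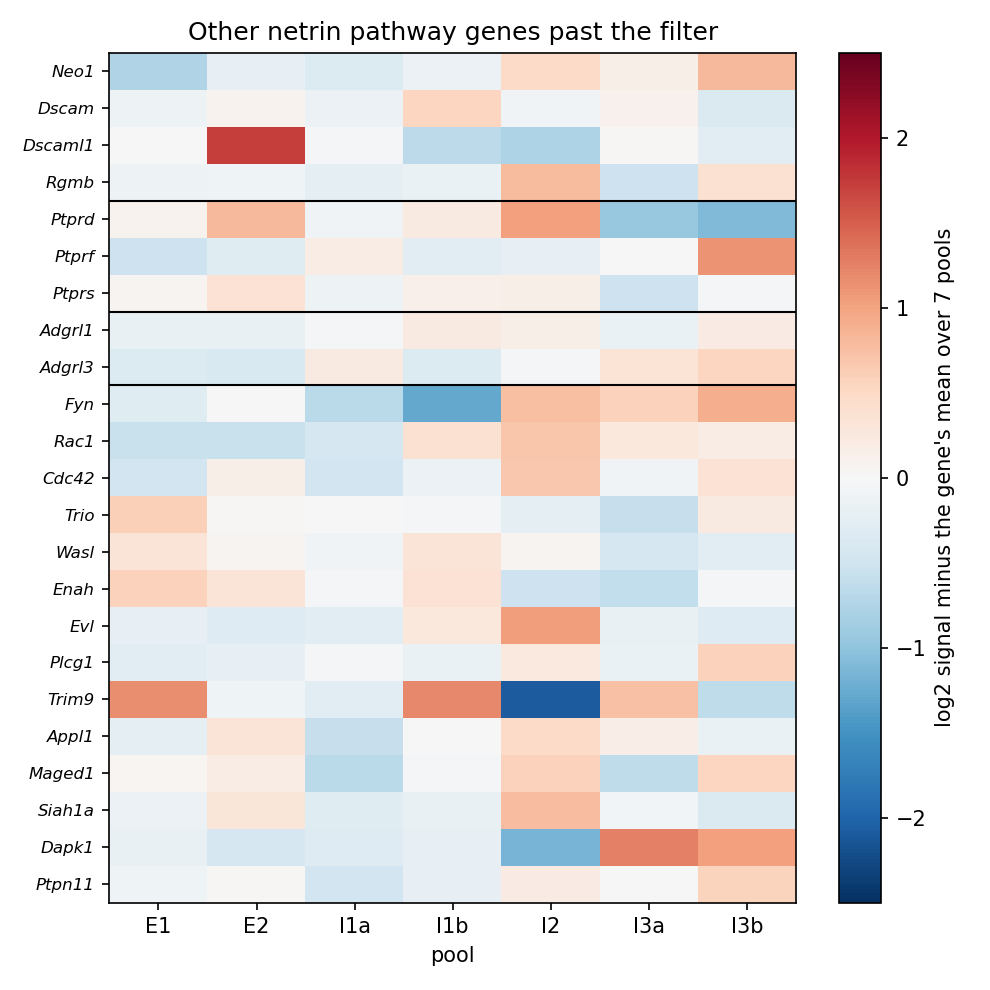
Log2 signal minus each gene's own mean over 7 pools (colour) for the 23 other pathway genes past the filter (rows) in each pool (columns); lines separate the 4 lists, from top to bottom receptors and ligands, netrin-G-related partners, partners of Unc5 and cytoplasmic effectors. Trim9 was lowest in I2, at 6.24, and Dscaml1 highest in E2, at 5.94.

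Genes with the pattern most like each member were looked up over the 7 pool means, as a description. For Dcc they were Nxph2, a neurexophilin that binds neurexins (r = 0.999), Atp6v0e, a proton pump subunit (r = 0.997), and the long noncoding RNA Tug1 (r = 0.995). In all, 139 of 4285 genes compared had an r over 0.9 with Dcc, and each such r is set mostly by I2. For Ntng1 they were Uso1, a vesicle tethering factor (r = 0.986), Syt1 (r = 0.968) and Elmo1, a regulator of Rac (r = 0.963), with 14 genes over 0.9 and I3a as the point that stands apart. For Unc5c they were Twf2, an actin regulator (r = 0.962), Pgm2l1 (r = 0.953) and Vezt, a junction protein (r = 0.942), with 24 over 0.9. For Unc5d they were Plch1, a phospholipase (r = 0.968), Zfp523 (r = 0.963) and the Y-linked demethylase gene Kdm5d (r = 0.959), with 11 over 0.9. The 7 points share 1 normalization between arrays, and the spans of some of these genes were small, at 0.51 log2 units for Zfp523 and 0.72 for Atp6v0e.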

How the data were processed

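The deposited values are log2 signals that the authors made with affy and GCRMA, per the submitters' processing notes, without versions. GCRMA writes base 2, which the range of 2.39 to 15.9 fits. Of 30843 probe sets, 64 are controls, 24034 have 1 gene symbol, 477 several and 6268 none. Symbols were updated through Entrez identifiers to RefSeq GRCm38.p6, where 23883 matched. Each of 16244 genes was read by its probe set with the highest mean, and 4409 with a pool mean of 5 or more were tested.

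R 4.3.3 with limma 3.58.1 was used, with lmFit and eBayes with an intensity trend. E against I and I1 against I3 were fitted on 7 pool means with 5 and 3 residual degrees of freedom. Sister types and all 21 pairs of pools were fitted on 14 arrays with 7. A gene was called where p, adjusted by Benjamini-Hochberg, was under 0.05 and the difference reached 1 log2 unit. The number of arrays limits the precision.

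All members were named. Of each pathway list, the genes called in at least 1 comparison were named (where more than 4 or none, the 4 with the largest difference), and for each member the 3 genes of highest r without clone-type names. Neo1, Dscam, Lrrc4, Lrrc4c, Flrt2, Ntn5 and Draxin were named after their values were seen. Members and lists were chosen with earlier results of these data known. The main fits did not pair arrays across pools by technical replicate number. Differences between replicates correlated with r of -0.12 to 0.21, over 0.1 in 4 of 21 pairs of pools. As a description, this cannot exclude such a pairing. The fits were tested on simulated data. Of 67 genes shifted by 2 log2 units, E against I recovered 70.1% and I1 against I3 67.2%, with 10 false calls in each simulation. E1 against E2 recovered 100%, with 0 false calls. Each simulation also shifted 67 genes by 3 and 66 by 5 log2 units, and many shifted genes ease the adjusted threshold. The shares are averages over genes and not the chance of a call for the 4 members. In E against I their SE was 0.68 to 1.25, and Slc17a6 at 4.58 and Gad1 at -4.31 were not called. Absent calls in the first 2 comparisons therefore do not show that a gene is alike in both groups. Alternatives covered the filter, floor, normalization, choice of probe set, trend, random block, replicate block, and left-out arrays and pools. Figures were drawn with matplotlib 3.10.9.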

Additional observations from a re-analysis of the deposited data

Results flagged for a closer look

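Among the 5 inhibitory pools, 2 of 12 genes or probe sets, a selection made after values were seen, had 1 pool far from the rest, by the gap to the nearest pool over the whole range, against Dixon's critical value of 0.710. Chance alone marks about 1 in 20 where sets are unselected and independent, which these are not, so the count cannot be set against that rate. The Ntng1 level in I3a, 3.12 against 6.05 in the nearest pool, gave 0.717 on the brightest probe set. The second Ntng1 probe set, also lowest in I3a, gave 0.541 and was not marked. The second Dcc probe set gave 0.987, with I2 at 3.90. The other 4 pools read 2.45 to 2.47, near the lowest value of the probe set, and so had almost no spread; the ratio then says only that I2 alone rose above that level. The brighter Dcc probe set gave 0.674 and was not marked.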

How the results depend on the processing

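Signal over background limits these results: Dcc and Unc5d exceed 5 in 1 pool each, and differences below that level depend on the floor. Each type is 1 pool. The calls of Ntng1 in E1 against E2 and in I3a against I3b kept their sign and side of the threshold in 13 of 13 alternatives, at -1.15 to -2.37 and -1.50 to -3.81. Several alternatives, such as those of the filter and trend, cannot change the difference itself. None used the second Ntng1 probe set alone, which by limma was not called in I3a against I3b (-0.88, adjusted p 0.0543). Between I1a and I1b, Ntng1 changed sign when its probe sets were averaged (0.15).

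The members called in E1 against E2 were 1 to 2 with single arrays left out. In I1a against I1b they were 1 with a filter at 7 (which drops Unc5d), 0 with values under 5 set to 5 and 1 with probe sets averaged. In I3a against I3b they were 1 with a filter at 7 and 1 with values under 5 set to 5. In I1 against I3, 1 member was called with the pool as a random block. The cause was not tested beyond the construction of these settings. The replicate block left 2 members called in each sister pair and 44 of the members' pairs, as without it, and could not be applied to pool means.

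Over all genes, 326 calls were made in the E pair, 579 in the I1 pair and 437 in the I3 pair. They were 193, 304 and 218 with a filter at 7, 217, 358 and 256 with values under 5 set to 5, and 187, 309 and 246 with probe sets averaged, all of which test fewer genes or narrow the range of values. Over 21 pairs, 14406 gene-by-pair calls became 8142 with a filter at 7 and 8542 with probe sets averaged. For E against I the 1 call became 2 without a filter, with a filter at 7 or with values under 5 set to 5, 0 without the trend, 6 with the random block and 0 to 2 with pools or replicates left out. For I1 against I3 the 0 calls became 1 without a filter, 2 with values under 5 set to 5, 1 without the trend and 114 with the random block.

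Dcc kept 6 of its 10 called pairs with values under 5 set to 5 and with probe sets averaged, Unc5d kept 0 of 9 in the former, and Ntng1 had 7 of 13 with probe sets averaged. With pools or replicates left out, differences in E against I ran from -1.03 to 0.12 for Dcc, -1.22 to 0.033 for Unc5c, -0.76 to 0.036 for Unc5d and -0.17 to 1.96 for Ntng1. In I1 against I3 they ran from -0.013 to 1.38 for Dcc, -2.23 to 0.11 for Unc5d and -0.57 to 3.06 for Ntng1, while Unc5c kept its sign. The gene set of the filter was kept when pools or arrays were left out.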
